A study of Mus musculus with 6 samples.

Results

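The 8 genes described here, Esm1, Pdgfb, Adm, Igfbp3, Cxcr4, Mcam, Kcne3 and Nid2, are known from endothelial tip cells and vessel sprouting. They were taken as a named list, out of 20284 protein-coding genes with a measured window, and each was examined over its annotated span with 10 kb on either side. The list was chosen with earlier results of these data known. These 8 windows held 294 tiles of 1 kb, of 1954255 tiles in the whole series. The tiles covered the autosomes only, and shares over the genome refer to them. DNA methylation had been read by bisulfite sequencing of tagmented genomic DNA from endothelial cells that were sorted out of mouse lung. Dnmt3a knockout mice (KO, 3 samples) were compared with wild-type mice (WT, 3 samples), to ask where methylation in these cells depends on Dnmt3a, an enzyme that methylates unmethylated DNA. The sources used here do not give how or in which cells Dnmt3a was deleted, nor the age, sex and strain of the mice, and the methylation levels do not check the genotype. They do not say either that replicates were separate animals, so every p-value below rests on a spread between samples that may be only technical. Each value is the methylation level of a tile or of a mean over tiles, in percent, and a difference in percentage points is always KO minus WT. A level averages over the sorted cells, so complete loss in some cells and partial loss in all cannot be told apart. RNA was not measured in these samples, and a methylation level says nothing of whether a gene was transcribed.

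When a vessel sprouts, a tip cell leads the way and follows gradients of VEGF, while stalk cells behind it divide and form the lumen. Tip cells are known for a set of secreted factors, surface receptors and matrix proteins that let them guide the sprout, digest and rebuild the basement membrane and call in pericytes. In adult lung the endothelium is mostly quiescent, and some of these genes, such as Esm1 and Adm, are known for induction by VEGF or hypoxia. DNA methylation sits mainly on CpG dinucleotides. Gene starts rich in CpG are usually unmethylated, most of the remaining genome is methylated, and enhancers active in a cell type usually have intermediate or low levels.

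Over all tiles of the genome the samples lay between 63.5 and 63.8% in KO and between 68.7 and 69.5% in WT. The start tiles of endothelial marker genes were low in both groups, at 1.15 to 19.4% in WT for the 6 of 9 genes with an annotated start, which included Kdr at 1.41%. The leukocyte markers Ptprc, Cd3e, Cd79a, Laptm5 and Itgam lay at 54.5 to 77.7% in WT at their starts, and the broader gene Lcp1 at 1.58%. Of the epithelial markers, 3 of 5 had an annotated start, at 1.72 to 72.4% in WT. Of the mesenchymal markers, 2 of 6 had one, both under 5% (Col1a2 3.22%, Pdgfra 0.677%), so a low start does not by itself mark the cell type. Some markers of other cell types were lower in KO without overlap of the samples: the start tile of Laptm5 went from 62.9% ± 0.573 in WT to 35.2% ± 3.54 in KO, that of Epcam from 33.0% ± 0.924 to 16.5% ± 2.77 and that of Cd3e from 76.6% ± 3.56 to 70.8% ± 1.80. The other 4 leukocyte and 2 epithelial starts described here and both mesenchymal starts overlapped between groups. The endothelial starts of Tek and Tie1 were lower without overlap too. Tek went from 4.31% ± 2.06 in WT to 1.13% ± 0.305 in KO, and Tie1 from 19.4% ± 3.36 to 11.7% ± 0.849. Those of Kdr, Egfl7, Erg and Emcn overlapped. Such a loss without overlap was found in 31.6% of tiles genome-wide, which is a share over all tiles and not over start tiles. The part of other cell types in the results below was not tested.

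All 8 windows lost methylation in KO, and none of their tiles was called higher. With limma, 139 of the 294 tiles (47.3%) were called lower at an adjusted p under 0.05 and a loss of at least 10 points. The share called lower was 16.2% over all tiles of the genome and 19.7% over the tiles in windows of protein-coding genes. After centring each sample on its own median tile 70 tiles (23.8%) were called lower, beside 6.64% of all tiles, and after scaling to one mean level also 70, beside 6.58%. No tile was called higher and 0 were higher at an unadjusted p under 0.05, against 0.0796% of all tiles called higher. After centring 0 of the 294 were called higher, beside 0.931% of all tiles, and after scaling 1, beside 1.57%. The highest KO sample was lower than the lowest WT sample in 191 of the 294 tiles, an order found in 31.6% of tiles genome-wide. The reverse order was found in 0 of the 294, against 1.54% of all tiles. The median tile differed by -10.7 points, beside -4.05 for all tiles. Between 27.6% (Mcam, 8 of 29) and 66.7% (Esm1, 20 of 30) of the tiles of a window were called lower.

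**Figure D1:**
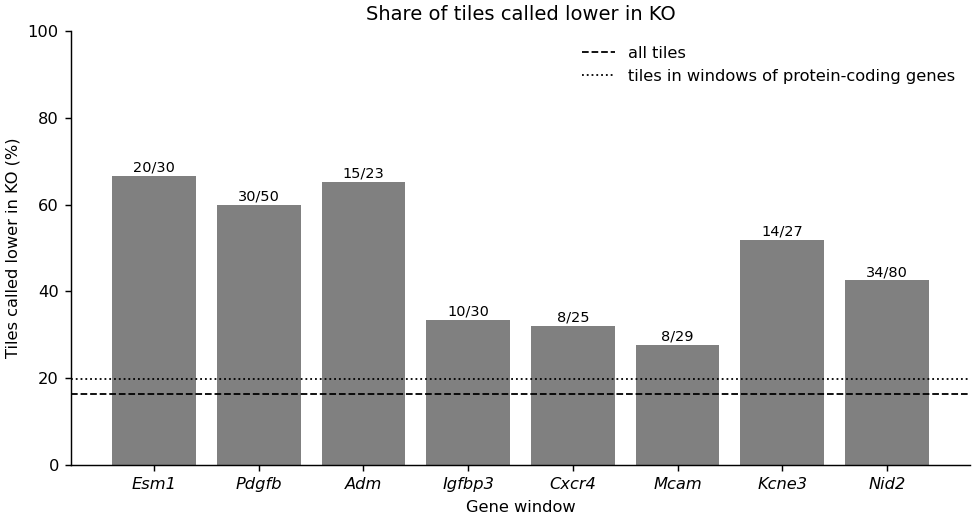
Share of 1 kb tiles called lower in KO (y axis, percent; limma, adjusted p under 0.05 and at least 10 points) in each gene window (x axis). Numbers over the bars are called tiles of all tiles, the dashed line is the share of all tiles (16.2%) and the dotted line that of tiles in windows of protein-coding genes (19.7%). All 8 bars lie above both lines, with Esm1 highest at 66.7% and Mcam lowest at 27.6%.

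The mean level of the Esm1 window was 51.0, 49.9 and 51.9% in the KO samples and 69.0, 67.7 and 65.8% in the WT samples. The groups did not overlap here, nor in any of the other 7 windows. The difference was -16.6 points (SE 0.993, limma adjusted p = 3.84e-07), and 2.06% of all protein-coding windows lost more. Adm was nearly as far down, at 41.2, 42.5 and 43.6% in KO and 59.2, 57.3 and 58.8% in WT, a difference of -16.0 points (SE 0.956, limma adjusted p = 3.80e-07). The samples of Pdgfb were at 39.2, 38.5 and 40.1% in KO and 51.3, 53.2 and 53.0% in WT, or -13.2 points (SE 0.904, limma adjusted p = 7.27e-07). Esm1, Adm and Pdgfb thus had the 3 largest differences of the 8. Kcne3 went from 65.3% ± 0.776 in WT to 53.7% ± 1.30 in KO (SD, n = 3 each; -11.7 points), Nid2 from 74.7% ± 0.624 to 63.4% ± 0.435 (-11.3) and Cxcr4 from 57.4% ± 1.75 to 46.5% ± 1.19 (-10.9). Igfbp3, from 64.8% ± 0.666 to 56.7% ± 0.473 (-8.09 points), and Mcam, from 43.3% ± 1.19 to 35.5% ± 0.291 (-7.86), had the smallest differences of the 8. Without flank tiles in another protein-coding gene, Mcam differed by -10.3 points and Igfbp3 by -7.12, so the last place of Mcam depended on those tiles. In the order of the full windows, the steps from Adm to Pdgfb and from Cxcr4 to Igfbp3 were 2.76 and 2.79 points. These were 2.10 and 2.11 times their standard error. The other steps between neighbours were at most 1.23 times it. That standard error combines those of both windows as if they were independent, although all windows come from the same samples. The steps were formed after ranking, and whether neighbours in this order differ was not tested.

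All 8 windows were called lower (adjusted p under 0.05 and at least 5 points), as were 56.7% of the 20284 gene windows. The count alone therefore does not set these genes apart, and the size of the loss was read against the genome instead. The median window of the 8 genes differed by -11.5 points, beside -5.59 for all genes. After each sample had been centred on its own median tile, which takes -4.89 points off every difference, 6 of the 8 windows were still called lower, beside 17.1% of all windows. Those 6 were Esm1 (-11.7 points), Adm (-11.1), Pdgfb (-8.33), Kcne3 (-6.77), Nid2 (-6.45) and Cxcr4 (-5.99). Igfbp3 (-3.20 points, adjusted p = 0.00670) and Mcam (-2.97, 0.0149) then missed the 5-point minimum. Scaling to one mean level kept the same 6, beside 17.0% of all windows.

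**Figure D2:**
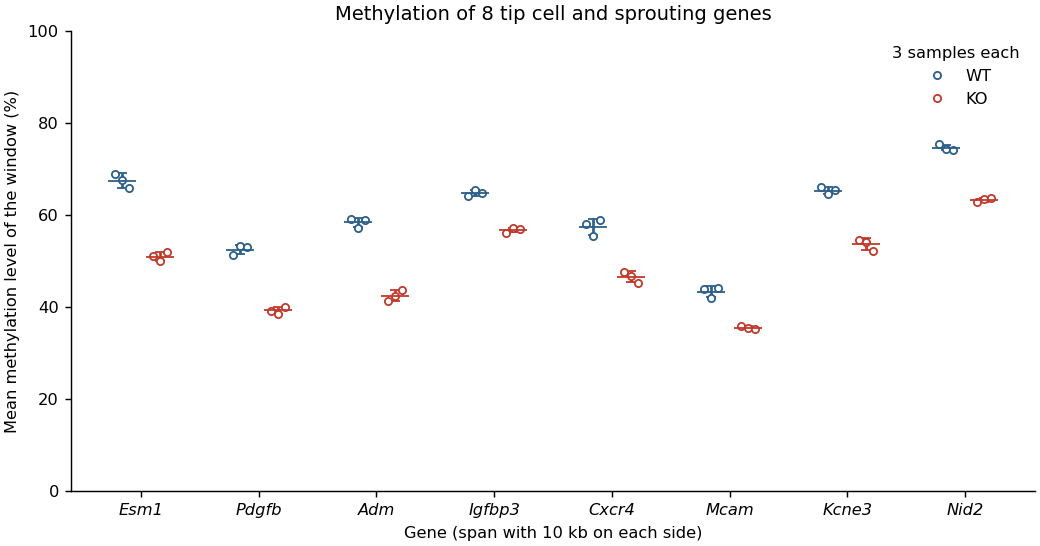
Mean methylation level of each gene window (y axis, percent) by gene (x axis), with 1 open circle per sample and the mean with its SD as bars, WT in blue and KO in red. In every gene the 3 KO samples lie below the 3 WT samples, from Mcam (35.5% against 43.3%) to Nid2 (63.4% against 74.7%).

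**Figure D3:**
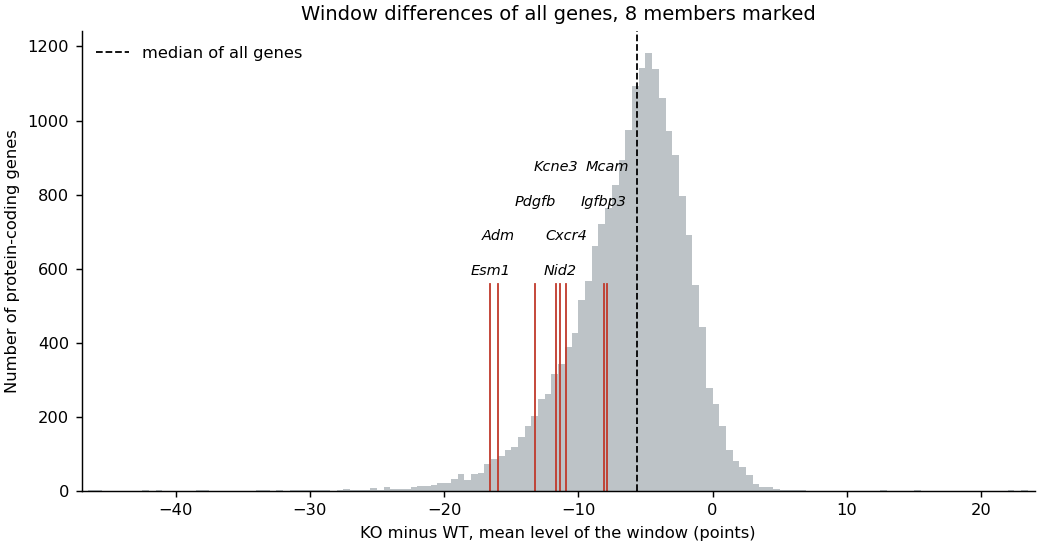
Number of protein-coding genes (y axis) by the difference of their window mean, KO minus WT, in points (x axis, bins of 0.5). Red lines mark the 8 genes and the dashed line the median of all genes, -5.59 points; the 8 lie to the left of it, between -7.86 (Mcam) and -16.6 points (Esm1).

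The annotated starts themselves were mostly unmethylated in both groups with at most small differences, except at Kcne3. RefSeq promoter entries (GRCm38.p6, the assembly named mm10) gave 7 starts for 6 of the genes, and none was matched for Pdgfb and Nid2. The tiles holding the starts of Cxcr4 (0.509% ± 0.356 in KO, 0.436% ± 0.191 in WT), Mcam (0.983% ± 0.713, 0.540% ± 0.127), Adm (1.36% ± 0.199, 2.31% ± 0.603) and Igfbp3 (1.35% ± 0.317, 2.45% ± 0.314) were all below 3%. The start of Esm1 was low too, at 5.89, 5.99 and 2.96% in KO and 7.30, 10.5 and 5.19% in WT, with overlapping groups. None of these 5 was called. Both start tiles of Kcne3 were called lower, so the count was 2 of 7, beside 11.2% of the start tiles of all protein-coding genes. A tile under 10% in WT cannot lose 10 points, so 5 of the 7 starts could not have been called lower.

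The 250 bases before a start show how CpG-rich these starts are, and 4 are printed because they span the range from no methylation to high methylation at the start. Each runs 5′ to 3′ on the strand of its gene, from RefSeq (GRCm38.p6), with every CpG in capitals.
Cxcr4, chr1:128592300-128592549, minus strand: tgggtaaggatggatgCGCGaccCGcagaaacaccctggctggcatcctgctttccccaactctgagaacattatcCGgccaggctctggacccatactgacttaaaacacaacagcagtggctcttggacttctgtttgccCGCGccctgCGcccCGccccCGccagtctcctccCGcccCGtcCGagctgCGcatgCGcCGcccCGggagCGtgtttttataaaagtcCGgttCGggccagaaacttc
Esm1, chr13:113209409-113209658, plus strand: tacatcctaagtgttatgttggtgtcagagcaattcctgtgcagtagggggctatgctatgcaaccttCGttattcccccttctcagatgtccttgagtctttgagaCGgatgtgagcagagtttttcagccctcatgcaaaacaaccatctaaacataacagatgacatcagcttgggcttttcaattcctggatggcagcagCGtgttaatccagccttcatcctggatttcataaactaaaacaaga
Kcne3 first start, chr7:100176420-100176669, plus strand: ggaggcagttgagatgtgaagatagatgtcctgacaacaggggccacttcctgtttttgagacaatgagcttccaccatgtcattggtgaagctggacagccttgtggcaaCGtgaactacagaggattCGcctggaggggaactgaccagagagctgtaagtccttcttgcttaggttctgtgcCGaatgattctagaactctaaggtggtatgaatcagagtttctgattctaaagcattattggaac
Kcne3 second start, chr7:100178433-100178682, plus strand: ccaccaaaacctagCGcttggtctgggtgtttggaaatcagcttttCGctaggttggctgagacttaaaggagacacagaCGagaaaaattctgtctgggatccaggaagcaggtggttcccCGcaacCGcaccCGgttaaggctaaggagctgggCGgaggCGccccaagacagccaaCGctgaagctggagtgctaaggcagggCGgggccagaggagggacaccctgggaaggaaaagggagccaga

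The Cxcr4 stretch held 19 CpG, more than the median of 6 over the 32851 such stretches in the table, and 19.7% of them hold at least as many. Igfbp3 (32 CpG), Mcam (25) and the second start of Kcne3 (10) were also above that median, and Adm was near it with 7. Esm1 and the first start of Kcne3 had only 3 CpG each. With equally few CpG in these 250 bases, the Esm1 start tile was at 7.65% ± 2.65 in WT and the first Kcne3 start tile at 73.7% ± 5.91. The levels are of whole 1 kb tiles, in which CpG were not counted. The core of the hypoxia response element, ACGTG or GCGTG on either strand, contains a CpG and was found in 5 of the 7 stretches, those of Cxcr4, Esm1, Adm, Igfbp3 and the first Kcne3 start. It is present in 38.6% of all such stretches.

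Of the secreted factors, Esm1 encodes endocan, a proteoglycan induced by VEGF and one of the best known markers of tip cells (chromosome 13, 113209659 to 113218104). Past the start tile and its neighbour, which was at 4.86% ± 1.69 in KO and 13.7% ± 1.24 in WT, the loss was large. The tile from 113211001 to 113212000, inside the gene, was at 32.8, 29.9 and 18.6% in KO and 63.7, 70.0 and 66.5% in WT. Its difference of -39.6 points (SE 4.34, limma adjusted p = 1.47e-06) was the largest of the window. From there 16 of 18 tiles were called lower without a gap of more than 1 kb, up to the edge of the window at 113229000. The 16 called tiles alone were at a mean of 49.3% ± 0.496 in KO and 70.9% ± 2.65 in WT. Past the far end of the gene lay a second dip. Its tile from 113223001 to 113224000 was at 6.99, 5.99 and 5.56% in KO and 33.9, 42.6 and 20.9% in WT. The KO samples were close together and unmethylated there, while the WT samples were intermediate and spread. The non-coding gene Gm41069 covers the Esm1 span, so the levels there belong to both.

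Pdgfb encodes the B chain of platelet-derived growth factor, with which tip cells attract pericytes (chromosome 15, 79995865 to 80024614). Its span held the widest unmethylated stretch of the 8 genes. By group mean, 5 tiles in a row from 80010001 to 80015000 were under 10% in WT, and 6 in a row from 80009001 in KO. The lowest of them, from 80013001 to 80014000, was at 0.413% ± 0.0836 in KO and 0.582% ± 0.483 in WT, with overlapping samples (limma adjusted p = 0.936). On the high side of this stretch 13 of 14 tiles between 80015001 and 80029000 were called lower. The 13 called tiles alone were at 29.4% ± 0.243 in KO and 50.8% ± 2.88 in WT. The tile from 80027001 to 80028000 fell most, from 49.2, 66.3 and 68.5% in WT to 10.6, 18.6 and 16.4% in KO (-46.2 points, SE 4.42, limma adjusted p = 2.55e-07). This is the largest loss among the 294 tiles, and it lies in the flank, beyond the high end of the span. A smaller dip inside the gene, from 80020001 to 80021000, went from 18.6% ± 1.37 to 2.77% ± 0.904. The tiles at the 2 ends of the span, of which the start could not be told, were at 56.3% ± 4.52 in KO and 72.5% ± 1.79 in WT (low end) and at 7.82% ± 2.64 and 26.7% ± 1.84 (high end), and both were called lower. The call at the low end was lost after centring (-11.3 points, adjusted p = 0.0797) and after scaling (-11.0 points, 0.0866).

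Adm encodes adrenomedullin, a vasoactive peptide that is induced by hypoxia and needed for lymphatic and blood vessel development (chromosome 7, 110627657 to 110629820). The gene is so short that all 3 tiles of its span lay in the unmethylated stretch, at 1.11% ± 0.168 in KO and 4.12% ± 0.296 in WT. Outside it, 15 of 20 tiles were called lower. The tile just before the start tile, from 110626001 to 110627000, was at 5.63, 4.30 and 2.61% in KO and 41.4, 30.8 and 35.0% in WT (-31.6 points, SE 2.45, limma adjusted p = 1.54e-08). It was intermediate in every WT sample and low in every KO sample, so the unmethylated stretch was 5 kb long in KO and 4 kb in WT. The next tile out, from 110625001 to 110626000, lost most, from 77.1% ± 4.38 to 38.3% ± 3.20. The span lies within the non-coding gene Gm28863.

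Igfbp3 encodes an insulin-like growth factor binding protein (chromosome 11, 7206086 to 7215498). Its called losses lay mostly inside the gene and beyond its far end. Behind the start, inside the gene, the tile from 7212001 to 7213000 was at 8.94, 11.4 and 15.9% in KO and 44.2, 33.8 and 43.7% in WT (-28.5 points, SE 3.02, limma adjusted p = 9.90e-07). Its neighbour from 7211001 to 7212000 went from 21.6% ± 3.32 to 9.20% ± 1.58. In front of the start, 1 of 10 flank tiles was called lower, and the flank mean was 69.5% ± 1.31 in KO and 72.8% ± 4.19 in WT, with overlapping samples. The flank beyond the far end had 5 of 10 tiles called, at 62.6% ± 0.970 and 75.1% ± 2.47, and part of it belongs to the neighbouring gene Igfbp1. Whether the 2 flanks differed was not tested.

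Of the surface proteins, Cxcr4 encodes the receptor for the chemokine Cxcl12 and is a tip cell marker (chromosome 1, 128588199 to 128592299). Its span showed no detectable difference (-0.202 points, limma adjusted p = 0.882), at 31.1, 31.9 and 30.7% in KO and 31.1, 29.4 and 33.7% in WT, with overlapping samples and 0 of 5 tiles called. In this span the 3 tiles from 128590001 to 128593000 were under 10% in WT and could not lose 10 points. The called losses were all in the flanks, where 8 of 20 tiles were lower. Ahead of the start, 5 tiles in a row from 128594001 to 128599000 were at 35.1% ± 0.290 in KO and 58.0% ± 2.70 in WT. Of these, the tile from 128594001 to 128595000 was at 30.1, 30.3 and 25.2% in KO and 67.3, 57.7 and 65.7% in WT (-35.0 points, SE 4.06, limma adjusted p = 3.05e-06). A tile at the far edge of the window, from 128578001 to 128579000, lost -35.5 points, slightly more.

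Mcam encodes CD146, an adhesion molecule of endothelial cells and pericytes (chromosome 9, 44134658 to 44142727). It was the least methylated of the 8 windows, and its upstream flank was low in both groups, at 14.1% ± 0.730 in KO and 20.2% ± 0.483 in WT. Of its 8 called tiles, 5 lay inside the gene. In the run of 5 called tiles from 44136001 to 44141000 the level went from 46.7% ± 3.91 in WT to 22.8% ± 2.09 in KO. The tile from 44139001 to 44140000 was at 26.8, 20.6 and 19.2% in KO and 69.7, 59.7 and 61.9% in WT (-41.6 points, SE 3.99, limma adjusted p = 2.66e-07). Past the gene, in the flank that runs into Cbl, 0 of 10 tiles were called, and the mean of 68.1% ± 1.81 in KO overlapped the 71.3% ± 3.92 in WT.

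Kcne3 encodes a small subunit that modulates voltage-gated potassium channels (chromosome 7, 100176507 to 100184869). It is the 1 gene here with a pair of annotated starts, and they had different levels. The tile of the second start, from 100178001 to 100179000, was at 2.47, 5.05 and 4.71% in KO and 14.8, 16.9 and 12.0% in WT. All KO samples were below all WT samples, and the difference was -10.5 points (SE 1.55, limma adjusted p = 5.50e-05). It sits just over the 10-point minimum and fell under it without KO replicate 1 (-9.68 points) or WT replicate 2 (-9.32), and after centring (-5.59) or scaling (-9.75). The tile of the first start was at 67.1, 62.2 and 41.5% in KO and 79.2, 74.6 and 67.5% in WT, a difference of -16.8 points (SE 5.27, limma adjusted p = 0.0299). The KO samples were spread, with replicate 3 the lowest. Without KO replicate 3 the difference was -9.09 points (adjusted p = 0.175), and the call also ended without WT replicate 1 (0.141) or WT replicate 2 (0.0826), after centring (-11.9 points, 0.172) or scaling (-11.5 points, 0.196), and without the variance trend (0.0773). Between the starts, the tile from 100177001 to 100178000 was at 45.1, 50.7 and 48.8% in KO and 75.1, 83.5 and 77.0% in WT (-30.4 points, SE 4.01, limma adjusted p = 1.51e-05). It lost the most of the window and lay 1 kb ahead of the second start.

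Nid2 encodes nidogen-2, which links laminin and collagen IV in basement membranes, and is the longest of the 8 genes (chromosome 14, 19751257 to 19811787). Its low end was unmethylated, with 3 tiles in a row under 10% in both groups, from 19750001, just outside the span. The window also overlaps the gene Rtraf, so its levels do not belong to Nid2 alone. The tile at that end had 1.14% ± 0.646 in KO and 0.629% ± 0.426 in WT, while the high end had 79.7% ± 3.87 and 82.3% ± 3.77. Losses came in separate patches. The longest ran from 19759001 to 19772000, with 11 called tiles at 43.7% ± 3.60 in KO and 71.1% ± 2.18 in WT. In it, the tile from 19760001 to 19761000 was at 34.8, 25.4 and 24.5% in KO and 67.7, 73.2 and 72.2% in WT (-42.8 points, SE 4.23, limma adjusted p = 3.85e-07). A patch of 4 tiles from 19794001 to 19798000, which was already intermediate in WT at 51.4% ± 1.74, went down to 31.8% ± 1.43. Between the patches, tiles such as that from 19781001 to 19782000 were at 85.2, 85.9 and 80.8% in KO and 83.6, 85.5 and 81.4% in WT, with full overlap. In all, 34 of 80 tiles were called lower.

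**Figure D4:**
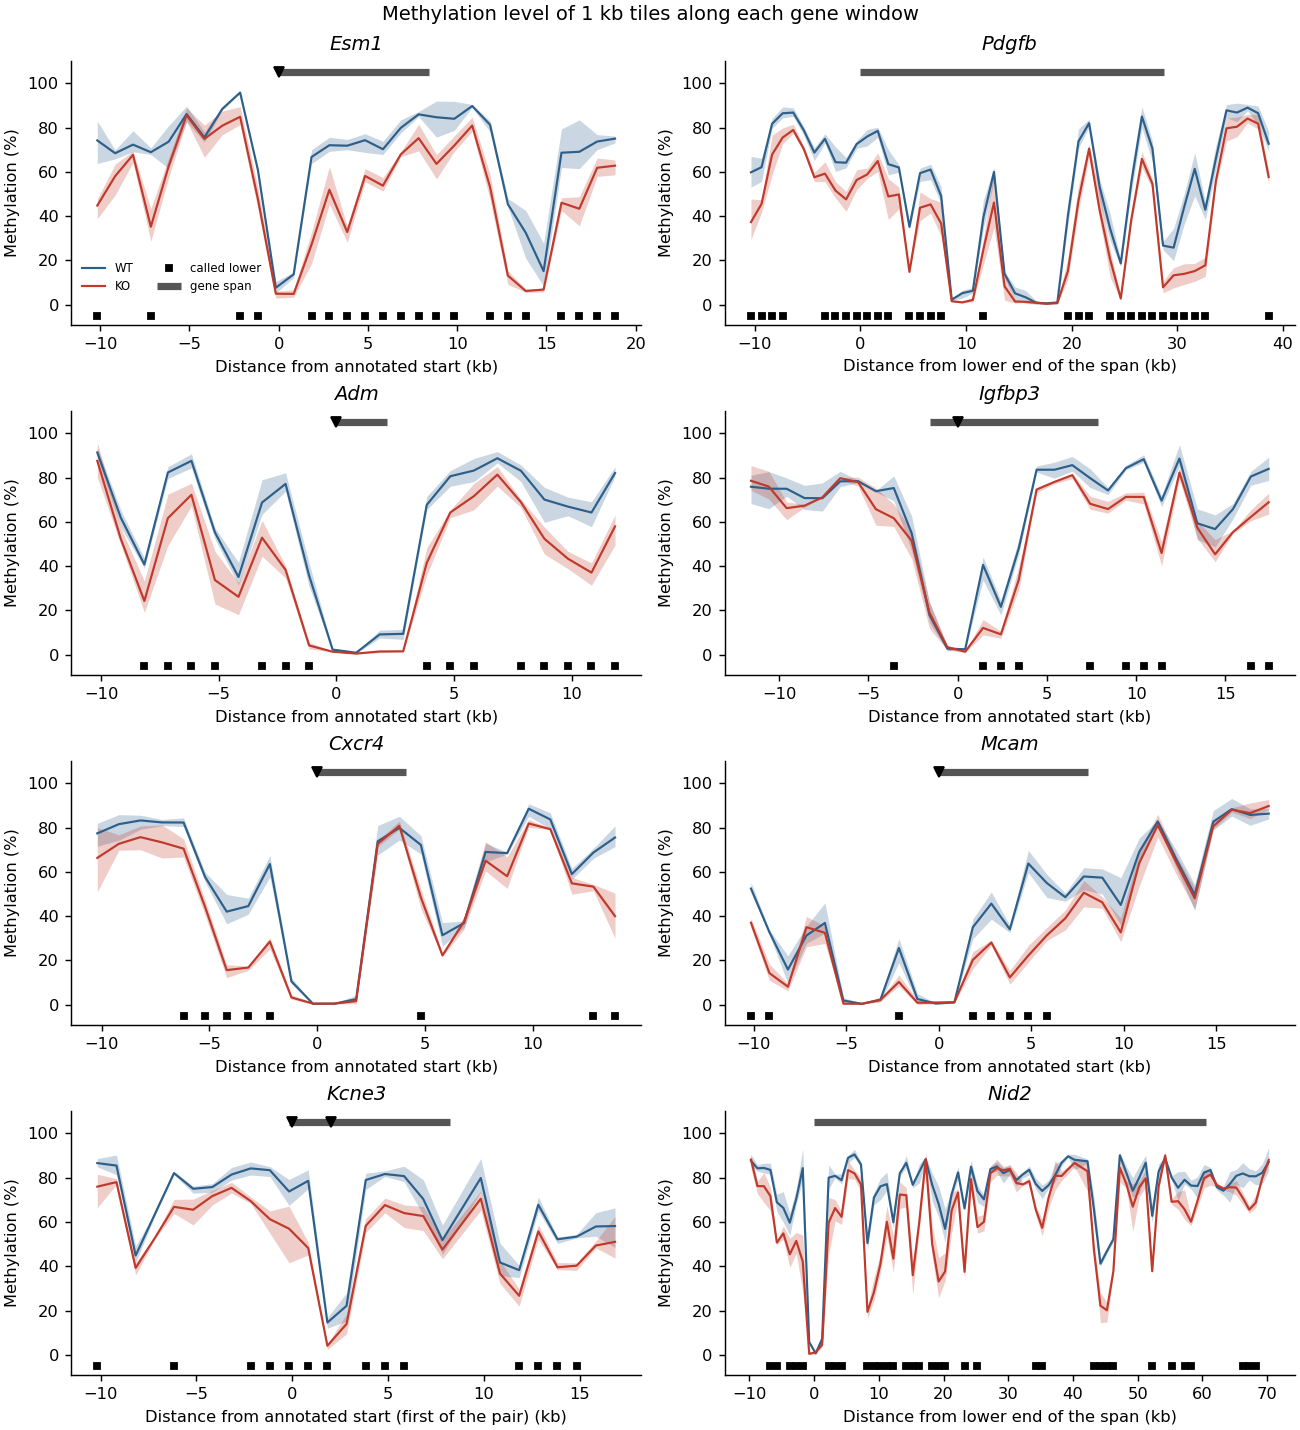
Methylation level of 1 kb tiles (y axis, percent) along each of the 8 windows, by distance in kb from the annotated start (triangles) or, for Pdgfb and Nid2, from the lower end of the span (x axis). Lines are group means over neighbouring measured tiles, shading is the range of the 3 samples, grey bars are the gene spans and black squares are tiles called lower. KO (red) and WT (blue) lie close in the unmethylated tiles. They also meet in stretches of methylated tiles, such as much of the flanks past Mcam and ahead of Igfbp3. They are furthest apart in Pdgfb beyond the high end of the span (-46.2 points) and in Nid2 inside the gene (-42.8 points).

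Whether a gene lost more inside its span than in its own flanks was tested on the difference between those means in each sample. Mcam lost more inside, -15.1 points against -4.62, and the difference of -10.4 points (SE 1.86) had an adjusted p of 0.00194 (limma). A larger loss inside of at least 5 points was called for 7.00% of 18190 genes. Adm and Cxcr4 lost less inside, by 14.9 points (SE 1.51, adjusted p = 4.60e-05) and 13.3 points (SE 1.51, adjusted p = 9.96e-05), and such calls were made for 10.8% of genes. The Adm span was at 4.12% in WT and had little to lose, and on a logit scale its difference was no longer called (adjusted p = 0.125). In the Cxcr4 span 3 tiles were under 10% in WT and had little to lose either. Its remaining tiles, at 79.9 and 73.8% in WT, were not called. On a logit scale the Cxcr4 difference was still called (limma adjusted p = 0.000580). That scale was applied to the mean of the span, 31.4% in WT, so it does not account for the 3 low tiles. For Esm1 (-3.15 points), Kcne3 (-4.05), Nid2 (-2.83), Pdgfb (2.95) and Igfbp3 (-0.610) the test did not pass (adjusted p = 0.156 to 0.817). With 20 kb flanks the Esm1 difference was called (-5.64 points, 0.0130), and with 5 kb flanks that of Pdgfb (6.83, 0.0157). Without flank tiles in another protein-coding gene the Nid2 difference changed sign, to 1.75 points (limma adjusted p = 0.471).

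By group mean, more tiles were under 10% in KO, 38 (12.9%) against 27 (9.18%) in WT. Over all tiles of the genome the shares were 2.07 and 1.38%, so the ratio of KO to WT was not larger in these windows. The 27 were under 10% in both groups, and the 11 others were spread over 7 of the genes, all but Nid2. The reverse, under 10% in WT alone, was found in 0 tiles. Of the 11, 6 were called lower, at Adm, Esm1, Kcne3, Igfbp3 and 2 at Pdgfb. At the other end, levels of 80% or more were found in 93 tiles in WT (31.6%) and in 35 in KO (11.9%), beside 24.5 and 12.3% of all tiles.

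The losses were read by distance to the nearest tile under 10% in the mean of all 6 samples. Of the 30 such tiles in the windows, 1 was called lower (3.33%, beside 3.25% of such tiles genome-wide). Of these 30, 27 were under 10% in WT and could not lose 10 points, so the call rule itself kept the share low. At 1 to 2 kb from a tile under 10%, 27 of 38 tiles were called, beside 46.5% called in the genome. The 38 tiles were at a mean of 41.4% in KO and 58.2% in WT. At 3 to 5 kb it was 33 of 54, beside 32.4%, and further away 78 of 172 (45.3%), beside 14.5%. The order of the pooled shares did not hold in every gene, since Mcam had 3 of 5 tiles called at 1 to 2 kb and 5 of 6 at 3 to 5 kb, and Cxcr4 had 2 of 4 and 4 of 6. Beyond 5 kb Pdgfb had 21 of 29 tiles called and Esm1 13 of 18, while Mcam had 0 of 12. The shares describe these tiles, which are neighbours within 8 loci, and no test was made of them.

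**Figure D5:**
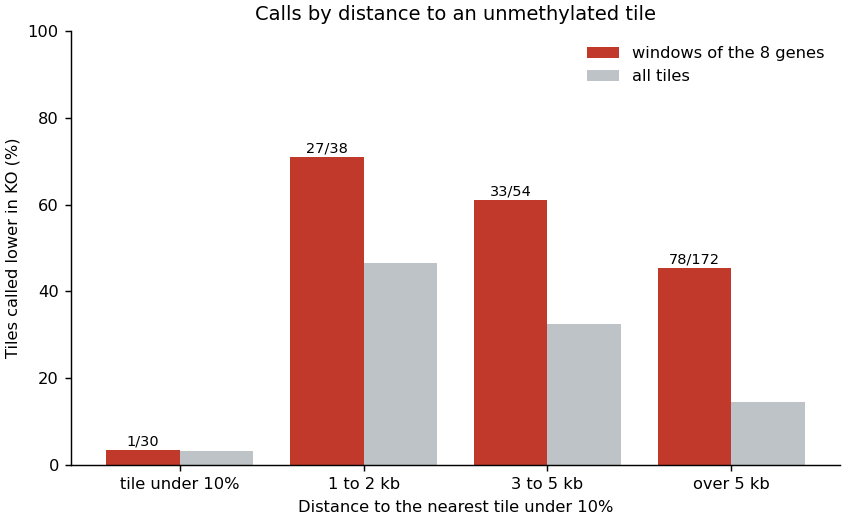
Share of tiles called lower in KO (y axis, percent) by distance to the nearest tile under 10% in the mean of all 6 samples (x axis), for the 8 windows (red, with called tiles of all tiles) and for all tiles of the genome (grey). The shares are low in the tiles under 10% (3.33% and 3.25%), where a tile under 10% in WT cannot lose 10 points. Outside these tiles they are higher in the 8 windows at every distance. They are 71.1% against 46.5% at 1 to 2 kb and 45.3% against 14.5% beyond 5 kb.

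Other genes of sprouting were lower in the same fits too. Their list was also chosen with earlier results of these data known, so it is not independent support. Of a list of 41, 40 were measured, all except Apln, which lies outside the autosomes covered by the tiles. Of the 40 windows, 39 were called lower and 0 higher, beside 56.7% of all gene windows called lower. The 1 without a call was Lcp2 (-4.88 points, adjusted p = 0.000177), which missed the 5-point minimum. After centring, 28 of 40 were still lower, beside 17.1% of all windows. Of their tiles 1508 of 3308 (45.6%) were called lower and 1 higher, beside 16.2% of all tiles called lower. Their median window differed by -11.9 points. The largest losses were those of the semaphorin receptor gene Plxnd1 (33.3% ± 1.01 in KO, 57.7% ± 1.68 in WT), the Notch target gene Hes1 (31.1% ± 1.18, 51.9% ± 0.203) and the tip cell gene Trp53i11 (38.2% ± 1.02, 58.7% ± 1.11). The smallest were those of Lcp2 (62.3% ± 0.387, 67.2% ± 1.15) and of Ramp3, a subunit of adrenomedullin receptors (60.0% ± 1.19, 65.5% ± 0.956).

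The partners of the 8 genes ranged widely. Ackr3, the second receptor for Cxcl12, lost -18.1 points and Cxcl12 itself -8.68. Of the adrenomedullin receptor genes, Calcrl differed by -5.67 points, Ramp2 by -9.53 and Ramp3 by -5.54, beside -16.0 points for Adm. Nid1, the paralog of Nid2, was at 61.5% ± 0.652 in KO and 71.6% ± 0.704 in WT (-10.1 points, limma adjusted p = 7.35e-07), beside -11.3 points for Nid2. Igf1r, the receptor of the growth factors that Igfbp3 binds, differed by -13.9 points, and Kcnq1, which encodes a channel that Kcne3 joins, by -10.7. Differences between these genes were not tested.

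The windows most like that of Esm1 over the 6 samples, by Euclidean distance of the levels, were those of Sertad2 (0.975 points), Cyb561 (1.56) and the chemokine gene Cx3cl1 (1.57). Their means were 51.1, 50.8 and 50.9% in KO and 67.3, 67.1 and 67.7% in WT, beside 50.9 and 67.5% for Esm1.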

How the data were processed

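Sorted lung endothelial cells of 3 KO and 3 WT samples were measured, each from 30 ng of DNA in 3 libraries read as pairs of 100 bases, per the labels' protocols. Per the submitters' processing notes, BWA 0.7.8 and the mm10 build were used. The authors deposited methylation levels as a fraction for every tile in each sample, turned into percent here. The sources used here do not give the methylation caller, any smoothing or a coverage filter. No read counts are given, so depth is unknown and no counting interval was computed; the model of counts foreseen in the design was replaced by its stated alternative. That was limma 3.58.1 (R 4.3.3) with a variance trend, over all 1954255 tiles, 20284 window means of at least 5 tiles, or 18190 span-minus-flank differences with at least 3 tiles in each part, adjusted by Benjamini-Hochberg over each table. The deposited columns were matched to samples by title. Gene spans and promoter entries came from RefSeq tables of GRCm38.p6. The tests were checked on simulated data. The members and gene lists were chosen with earlier results of these data known. The tiles named in each window were the start, the lowest in WT, the largest called loss and the longest run of called tiles; of the other sprouting genes the 3 largest and 2 smallest losses; and the 3 windows nearest to that of the gene with the largest loss. The other tiles, partner genes and markers named were chosen after their values were seen. The 5-point minimum for span against flanks was taken from the window rule after the design was written. Alternatives changed the scaling, the scale of the test, the variance model, the flanks, the minimum difference, the samples and the block. Tables were made with pandas 2.3.3 and figures with matplotlib 3.10.9 (Python 3.11.15).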

Additional observations from a re-analysis of the deposited data

How the results depend on the processing

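The 139 tiles called lower became 70 after centring and 70 after scaling, all 70 among the 139 in each case, 67 in the gene spans alone (49.3% of 136 tiles) and 51 at a minimum of 20 points. Under the other alternatives the count was 104 to 203, where the number of tiles tested changed with the flanks, and 118 to 128 without any 1 sample. Tiles called higher numbered 0 in each alternative except scaling, which gave 1. The 8 window calls held under the logit scale, without the variance trend, with flanks of 5 or 20 kb, without tiles of neighbouring genes and without any 1 sample. At a minimum of 10 points 6 were called, all but Igfbp3 and Mcam, and 6 after centring or scaling. In the spans alone 6 were called: Cxcr4 was not (-0.202 points), and Adm, with 3 tiles, was not tested. The 2 start tiles called, both of Kcne3, became 0 after centring, 0 after scaling, 1 without the variance trend and 0 to 2 without any 1 sample. The 3 calls of spans against flanks were 2 to 4. No called value changed sign. Deviations of same-numbered KO and WT samples correlated at 0.00563, -0.00321 and 0.0110 across tiles. KO replicates 1 and 3 correlated best with their own number and KO replicate 2 did not. Values this small cannot decide whether the replicate numbers pair the samples. With the replicate number as a block, 138 tiles were called lower. Depth is unknown, so a tile with few reads cannot be told from one with many, and tiles under 10% in WT can show no loss of 10 points.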
